A study of Mus musculus with 1152 samples.

Results

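Of 1152 wells of the adult mouse brain, 92 held a large share of mitochondrial RNA together with Camk2a, the mRNA of a synaptic kinase of excitatory neurons that is carried into dendrites. Members were chosen by 2 measured values and a depth limit. A well was a member when it had at least 50000 reads, when genes with names starting mt- took at least 5% of its reads, and when Camk2a reached 1000 CPM (counts per 1000000 reads of the well). Enough reads were found in 857 wells, so the members were 10.7% of them (exact Clopper-Pearson 95% interval 8.74 to 13.0, counting error only). They were set against the 699 wells with enough reads and under 5% of mt- reads, called comparison wells below. The other 66 wells with at least 5% of mt- reads had Camk2a under 1000 CPM and are called Camk2a-low wells.

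The libraries came from SMART-seq2, in which the RNA of each well of a plate is copied along its full length and amplified. All wells share their handling as far as the labels go: adult C57BL/6 mice of both sexes, brain tissue broken up by hand and by enzymes, vascular fragments bound to beads against CD31 (an endothelial surface protein), a second digestion, and a sort of fluorescent cells. The mice were Pdgfra-H2BGFP animals, in which a green histone marks nuclei of cells that use Pdgfra, and Tagl-CREERT2;Ai14 animals, in which a tamoxifen-dependent recombinase named for Tagl turns on a red protein. Cells were sorted into plates of 384 wells, but the labels tie no well to a line or an animal, so all wells form 1 sample without replicates, no difference below has a replicate check, and no p-value is given. Well names fall into 3 sets of that size, written 600s_182s, 613s and 1025s_182s, and members came from all of them, with 6, 49 and 37 wells in that order.

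Neuropil is the tissue between cell bodies, made of dendrites, axon endings, fine astrocyte processes and myelinated axons. A subset of mRNAs is moved into these processes and translated there, such as Camk2a and Ddn in dendrites and Mbp in the myelin sheath, while other mRNAs stay near the nucleus or at the rough endoplasmic reticulum of the cell body. Processes are also rich in mitochondria, which hold their own small genome with genes for respiratory chain subunits, ribosomal RNAs and transfer RNAs.

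The depth of the wells moved with the rule. Members had 50226 to 259329 reads (median 87029), comparison wells 52792 to 1451280 (median 337797). Reads of mt- genes were far more alike, with medians of 8842 in members and 5771 in comparison wells, so that the median share was 10.1% against 1.65%. Among wells with 50000 to 100000 reads, 111 of 136 had at least 5% of mt- reads, among those with 100000 to 200000 reads 42 of 165, from 200000 to 400000 reads 5 of 283, and over 400000 reads none of 273. Across all 857 wells the Spearman correlation of depth with mt- reads was 0.22 and with the mt- share -0.82, as a description of wells that share their library preparation.

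The highest counts of abundant genes were also looked at. Of 1565 genes that reached 1000 reads in some well and have a known exon length, none exceeded 2 reads per exonic base, and the highest count of any gene was 5679. The mitochondrial ribosomal RNA mt-Rnr2, with 1582 exonic bases, reached at most 2727 reads, and all mt- genes together at most 15157. How duplicate reads were treated is not known from the sources used. Whether a ceiling on counts lowered the share of abundant genes in deep wells was not tested. The lists below are also given between the 59 members and the 25 comparison wells under 100000 reads, a choice made after the data were seen. Of those 25 comparison wells 17 came from 600s_182s, 6 from 613s and 2 from 1025s_182s, and of the 59 members 3, 29 and 27 in that order. Between this comparison and that over all wells both depth and set differ, and the 2 cannot be told apart.

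**Figure D1:**
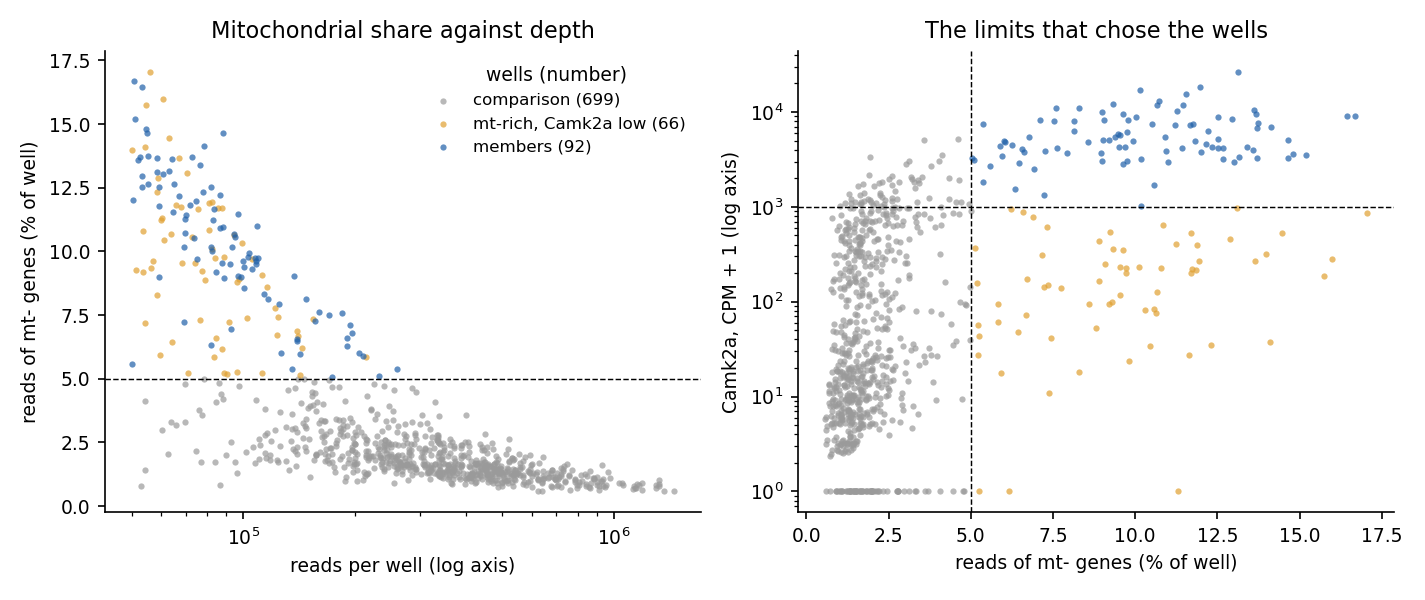
Left, the share of reads from mt- genes in each of the 857 wells (percent) against its depth (reads, log axis). Right, Camk2a (CPM + 1, log axis) against the same share, with dashed lines at the limits of 5% and 1000 CPM. Points are wells coloured by class, and members lie at the shallow end, between 50226 and 259329 reads.

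Around the limits the wells did not separate. The 3 members nearest above 5% had 5.05%, 5.10% and 5.38% of mt- reads, and the 3 wells nearest below it had 4.94%, 4.71% and 4.65%. The lowest Camk2a among members was 1017 CPM, followed by 1342 and 1529, and the highest among Camk2a-low wells were 967, 959 and 889 CPM. A further 61 comparison wells also had Camk2a of at least 1000 CPM, with a median of 1371 CPM, 2.5% of mt- reads and a depth of 335927 reads. Member wells ranged in Camk2a from 1017 to 26537 CPM (median 4932), and these values, like the mt- share, are the rule and not a result.

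The 5 other markers of the label were met unevenly. Kif5a, a motor protein that carries cargo down axons, ran from 39.3 to 28234 CPM over the members with a median of 6774, against a median of 73.0 in comparison wells, and was above 100 CPM in 90 of 92 members. Mbp, the myelin basic protein, ran from 2201 to 40248 CPM (median 20222) against a comparison median of 2733, and 73 members were above the highest comparison well, at 13050 CPM. Aldoc, an astrocyte enzyme of glycolysis, ran from 0 to 9056 CPM (median 1853) against a comparison median of 95.1, with 77 members above 100 CPM. These 3 markers were therefore high in most member wells, although the classes overlapped for each.

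Ddn and Gfap were not. Ddn, the dendritic protein dendrin, ran from 0 to 7970 CPM with a median of 16.2, was at 0 in 28 members and above 100 CPM in 35. Gfap, the filament protein of astrocytes, ran from 0 to 7940 CPM with a median of 0 and was above 100 CPM in 15 members. Their pooled levels, from summed reads, were 727 CPM for Ddn (exact Poisson 95% interval 710 to 745) and 279 for Gfap (269 to 290), against 23.2 and 21.5 CPM in comparison wells. Ddn and Gfap thus came from a part of the wells, and Kif5a and Mbp from nearly all. In the GENCODE vM21 annotation of GRCm38, Ddn lies at chr15:98803777-98809490, Kif5a at chr10:127225696-127263348, Gfap at chr11:102887336-102900912 and Aldoc at chr11:78322968-78327781, all protein-coding. Exons of Ddn, and of Pdgfra, Tagln, Lrrc7, Eef2k, Nefl, Grin2b, Nova1, Nfia, Mobp, Sox8, Snhg14, Rian, Sox2ot, Ncl, Srsf2, Sec61a1, Pdia4, Ssr2, Ndufb9, Uqcrc2, Slc2a1, Bmp4, Gpr17, Cx3cr1, Rapgef4 and Dolpp1, named below, overlap those of another annotated gene, and how reads shared by both were counted is not given in the sources used here.

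**Figure D2:**
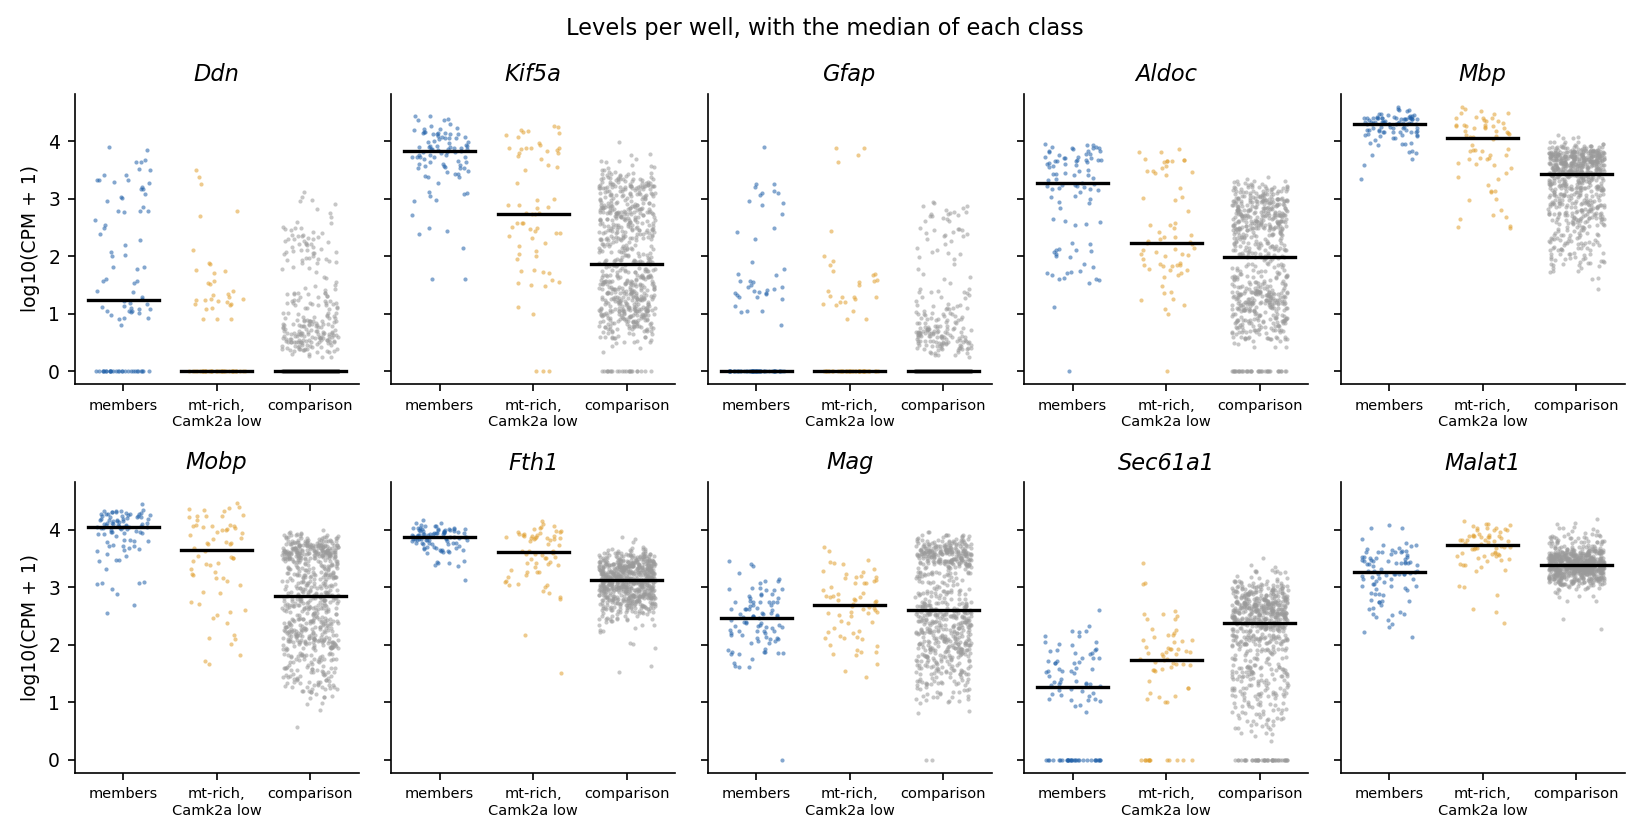
Levels of 10 genes as log10(CPM + 1) in the 92 members, the 66 Camk2a-low wells and the 699 comparison wells. Each point is a well and each black bar the median of its class. Mbp and Mobp are high in nearly every member, while Ddn is at 0 in 28 and Gfap in 51 of the 92.

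Levels were compared as the log2 ratio of pooled CPM, members over comparison wells, with 1 CPM added to each side. A gene was called higher or lower when this ratio was at least 2 in either direction and its level was 10 CPM or more in the class where it was higher, a call that describes size only. Of 12036 genes with at least 10 CPM in either class, 1600 were higher (13.3%) and 5856 lower (48.7%), and the median log2 ratio of all of them was -0.94. Centred on that median, 3318 were higher and 3278 lower. With mt- reads left out of the totals the median was -0.82. The 20 most abundant genes outside the mitochondrial genome took 16.1% of the other reads in members and 5.32% in comparison wells, and at 50000 reads a member held a median of 3253 genes against 4213.

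Few of the higher genes were shared by many members. A gene called higher was above 100 CPM in a median of 4 member wells, 896 of the 1600 (56.0%) in at most 5 wells and 137 in at least 46. A pooled ratio can therefore rest on a handful of wells, and the number of members above 100 CPM is given beside the genes below.

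**Figure D3:**
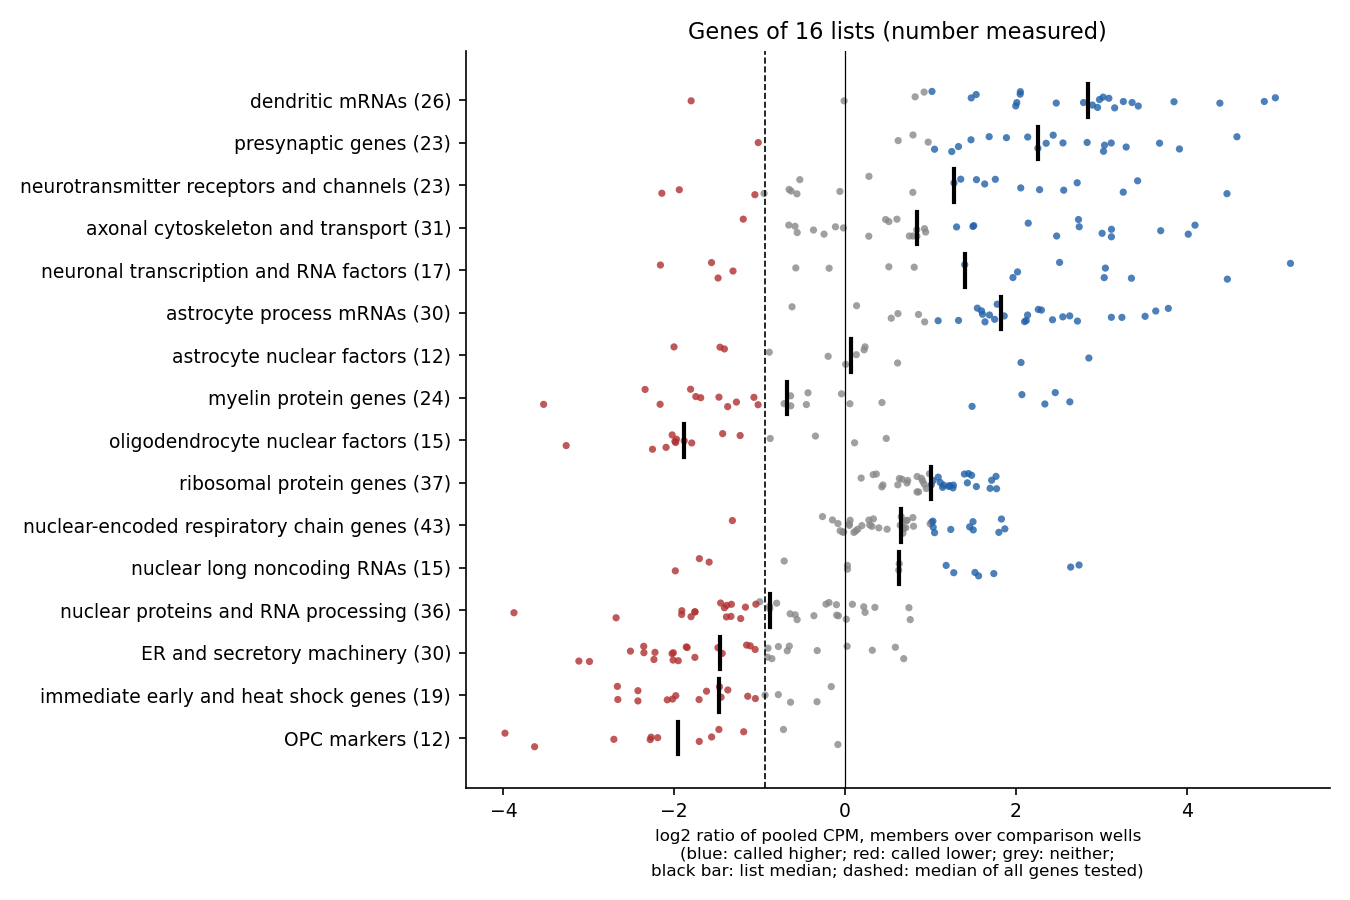
Log2 ratios of pooled CPM, members over comparison wells, for the genes of 16 lists, with the number measured in brackets. Each point is a gene, each black bar the median of its list, and the dashed line the median of all 12036 genes, -0.94. Dendritic mRNAs have the highest median, 2.84, and precursor markers the lowest, -1.95.

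Dendritic mRNAs stood higher as a group, in wells that were chosen by Camk2a, itself a dendritic mRNA of neurons. Ratios in this and the other neuronal lists are therefore not independent of the rule. They describe the members and are no separate support for neuronal RNA in them. Of the 26 dendritic mRNAs measured beside Camk2a, 22 were higher (84.6%, against 13.3% of all genes) and 1 was lower. The median log2 ratio was 2.84. Nrgn, the calmodulin-binding neurogranin, had 166 CPM in members and 10.6 in comparison wells, a log2 ratio of 3.85, and was above 100 CPM in 25 members. Dlgap3, a scaffold of the postsynaptic density, had 282 against 12.5 CPM (4.39) with 20 members above 100 CPM.

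The largest ratio of the list, 5.04 for Lrrc7, another postsynaptic scaffold, came from 4 wells above 100 CPM and was -0.98 with 613s left out. Lrrc7 had 2.69 CPM in comparison wells and passed the limit of 10 CPM only through members. The same holds for others named below, such as Slc17a7, Rbfox3 and Grin2b. Eef2k, a kinase of the translation elongation factor, was the gene called lower, with 7.62 against 29.1 CPM, and its ratio between wells under 100000 reads was 0.78. The summed level of the list without Camk2a had a median of 4038 CPM in members and 676 in comparison wells, and 88 of 92 members were above the comparison median. Under 100000 reads the list's median was 2.86, close to its value over all wells, beside 21.2% of 11002 genes called higher and 49.1% lower in that comparison. Within sets the medians were 3.34 in 1025s_182s, 2.03 in 613s and 1.35 in 600s_182s, where the medians of all genes were -2.06, -1.15 and -1.29. All genes called higher and lower were 17.4% and 59.7% within 1025s_182s, 14.5% and 53.1% within 613s, and 14.1% and 56.5% within 600s_182s.

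Akap5, which anchors kinases beneath the dendritic membrane, differed most between classes in how many wells held it. It was picked after its values were seen, as the gene with the largest difference in detection among 5756 genes of at least 50 CPM. After thinning each well to 50000 reads it had a read in 98.9% of members and 42.5% of comparison wells. Its level ran from 11.8 to 1906 CPM in members (median 105), against a comparison median of 10.2, and 52 members but only 4 comparison wells were above 100 CPM.

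Axonal cytoskeleton and transport genes were more divided. Of 31 measured, 13 were higher (41.9%, against 13.3% of all genes) and 1 lower (against 48.7%). Their median log2 ratio was 0.84, and 0.49 under 100000 reads. Kif5a led the list, with 8044 CPM in members against 469 in comparison wells (4.10). Kif5c, its sister motor, had 1300 against 99.5 CPM (3.70) and was above 100 CPM in 51 members.

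Nefl, the light neurofilament chain, had 422 against 25.1 CPM (4.02), from 18 members above 100 CPM. Stmn2, a tubulin-binding protein of growing axons, had 222 against 24.7 CPM (3.12), but its ratio under 100000 reads was 0.04. Stmn4, of the same family, was lower, with 108 against 248 CPM (-1.19). Kif5a was thus the broadest of the axonal genes named here: 79 of 92 members lay above the 90th percentile of comparison wells, 1593 CPM, where Kif5c had 46 above its own percentile.

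Presynaptic genes were higher by 19 of 23 measured (82.6%, against 13.3% of all genes), with 1 lower and a median of 2.26. Cplx1 and Cplx2 encode complexins, which clamp vesicle fusion. Cplx1 had 957 against 62.6 CPM (3.91), with 34 members above 100 CPM, and Cplx2 had 565 against 43.1 CPM (3.68), with 43. Slc17a7, the vesicular glutamate transporter of cortical neurons, had 181 against 6.58 CPM (4.59), from 19 members.

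Sv2a, a vesicle glycoprotein, was lower with 90.7 against 185 CPM (-1.02). The list's median was 0.90 between wells under 100000 reads, with 11 higher and 5 lower of 23, where 21.2% of all genes were higher and 49.1% lower. In the Camk2a-low wells the summed presynaptic level had a median of 1014 CPM, below the 1232 of comparison wells and the 4129 of members.

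Receptors, channels and nuclear factors of neurons gave less even results. Of 23 neurotransmitter receptors and channels measured of 29 listed, 12 were higher (52.2%, against 13.3% of all genes) and 3 lower (13.0%, against 48.7%). The median was 1.28, but -0.69 between wells under 100000 reads, against -0.95 for all genes. There 5 of 21 were higher and 8 lower, beside 21.2% and 49.1% of all genes. Gria1, an AMPA receptor subunit, had 187 against 18.7 CPM (3.26), and Grin2b, an NMDA receptor subunit, 91.8 against 3.18 CPM (4.47), from 13 and 10 members above 100 CPM. Kcna1, a potassium channel of axons, was lower with 24.3 against 96.1 CPM (-1.94).

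Of 17 measured neuronal transcription and RNA-binding factors, of 24 listed, 9 were higher (52.9%, against 13.3% of all genes) and 4 lower (23.5%, against 48.7%). The median was 1.4. Many of these proteins act in the nucleus. Celf4, a splicing and translation regulator, had 850 against 37.2 CPM (4.48) and was above 100 CPM in 40 members. Rbfox3, the nuclear protein known as NeuN, had 282 against 6.61 CPM (5.21) in the pool, from 13 members. Nova1, a splicing factor, was lower with 10.3 against 49.8 CPM (-2.16). Under 100000 reads 4 of 18 measured were higher, near the 21.2% of all genes, and 14 lower, against 49.1%. The median was -2.08 against -0.95 for all genes. The list's median thus had opposite signs in the 2 comparisons, whose wells differ in depth and in set, and the cause was not tested. Markers of excitatory, inhibitory and regional neurons were higher by 14 and lower by 2 of 21 measured of 30 listed. These are 66.7% and 9.52%, against 13.3% and 48.7% of all genes. Their median was 2.16, or 2.12 under 100000 reads.

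Astrocyte process mRNAs were higher by 24 of 30 measured (80.0%, against 13.3% of all genes) with none lower. Their median was 1.82, or 1.62 under 100000 reads. Aldoc had 2885 CPM in members and 304 in comparison wells (3.24). Aqp4, the water channel of astrocyte endfeet, had 198 against 13.4 CPM (3.78), and Mlc1, a membrane protein of the same endfeet, 422 against 36.0 CPM (3.51), from 15 and 17 members above 100 CPM. Gpr37l1, an orphan receptor, had 698 against 1074 CPM (-0.62), the lowest ratio of the list.

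The summed level of the list had a median of 26282 CPM in members and 9439 in comparison wells, and 87 members were above the comparison median. Camk2a-low wells had a median of 17654 CPM. Against them 6 of the 30 genes were called higher in members, no more than the 25.1% of all genes. Within 600s_182s 8 of the 30 were higher than in comparison wells, beside 14.1% of all genes. Gfap had a log2 ratio of -0.94 against the Camk2a-low wells, that is, less in members.

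Nuclear factors of astrocytes did not follow. Of 12 measured of 19 listed, 2 were higher (16.7%) and 3 lower (25.0%), against 13.3% and 48.7% of all genes. Their median was 0.07 against -0.94, and 9 of the 12 lay above the median of all genes. Under 100000 reads 7 were lower and none higher, and the median was -1.58 against -0.95 for all genes. Hes1, a Notch target, had 12.4 against 52.8 CPM (-2.0), and Nfia, a factor of astrocyte formation, 33.5 against 91.0 CPM (-1.41). Lhx2 had 28.9 against 3.13 CPM (2.85), from 4 members above 100 CPM, and -0.17 under 100000 reads. Summed, the nuclear factors had a median of 317 CPM in members and 701 in comparison wells, and 65 of 92 members were below the comparison median.

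Myelin protein genes were called in both directions. Of 24 measured, 5 were higher (20.8%, against 13.3% of all genes) and 11 lower (45.8%, near the 48.7% of all genes), and the median was -0.68, above the -0.94 of all genes. Under 100000 reads 6 were higher and 8 lower, and the median was -0.76. Those 5 were Mbp, Mobp, Fth1, Plekhb1 and Qdpr, an enzyme of cofactor recycling that completes the count and was named after its values were seen. Mbp had 17666 CPM in members (exact Poisson 95% interval 17580 to 17753) and 2850 in comparison wells, a log2 ratio of 2.63. Mobp, a second basic protein of compact myelin, had 10855 against 1971 CPM (2.46), and 55 members were above the highest comparison well, at 9955 CPM. Fth1, the heavy chain of ferritin, had 6821 against 1347 CPM (2.34), and Plekhb1, a membrane-binding protein, 3990 against 949 CPM (2.07). All of the members were above 100 CPM for Mbp, Mobp and Fth1, and 87 for Plekhb1.

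The adhesion and lipid genes of myelin named here went the other way in the pool. Mag, an adhesion protein of the innermost sheath, had 489 against 1717 CPM (-1.81). Its median over wells was 295 CPM in members and 397 in comparison wells, and 36 members were above the latter. Within sets the medians of Mag were 125 against 87.8 CPM in 1025s_182s, 933 against 415 in 600s_182s and 412 against 1236 in 613s. Ugt8a and Fa2h, enzymes that make galactolipids, had 183 against 827 CPM (-2.17) and 123 against 627 CPM (-2.34). Their medians over wells were 69.3 against 375 CPM and 46.9 against 215, although Fa2h had 20.2 against 15.2 in 1025s_182s. None of the members exceeded the 90th percentile of comparison wells for Mag or Ugt8a, at 4742 and 1971 CPM, while 87 did so for Mbp, at 6366 CPM.

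**Figure D4:**
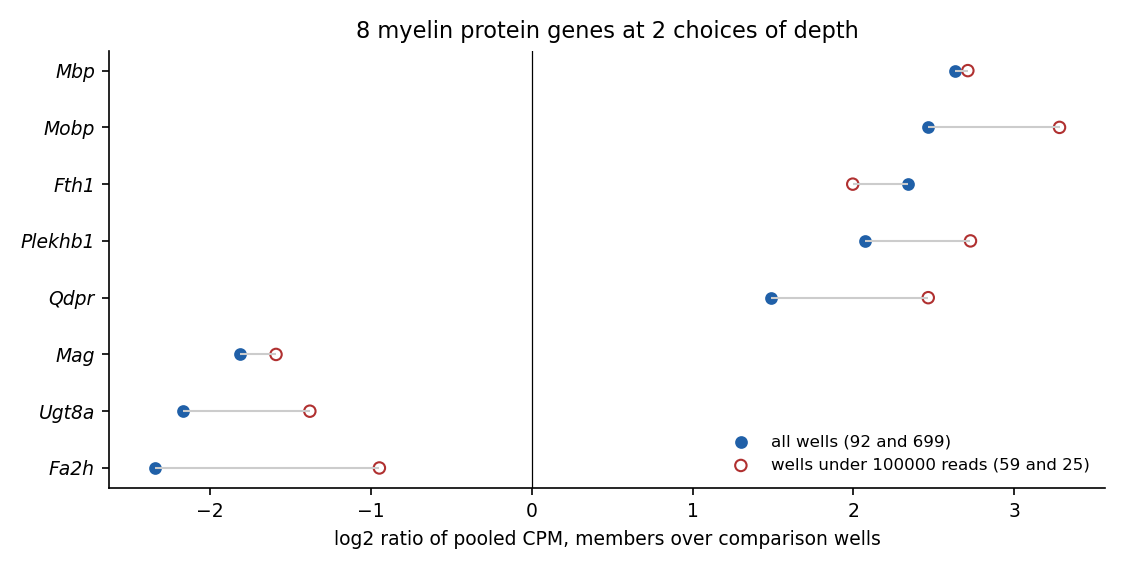
Log2 ratios of pooled CPM, members over comparison wells, for the 8 myelin protein genes named in the text, of 24 measured. Filled points use all wells (92 and 699) and open points wells under 100000 reads (59 and 25). Mbp, Mobp, Fth1, Plekhb1 and Qdpr are called higher in both, and Mag, Ugt8a and Fa2h lie below 0 in both.

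Mobp and Mag were also set against each other inside single wells. This pair was taken from opposite ends of the pooled ratios, so its values describe how the difference is spread over wells and are no further support for it. A well needed at least 20 reads of Mag, which 53 of 92 members and 581 of 699 comparison wells had. The median log2 ratio of Mobp to Mag counts was 3.98 over these members (quartiles 3.14 and 5.13) and 0.11 over the comparison wells (quartiles -0.86 and 0.82). Between wells under 100000 reads it was 3.87 in 31 members against -0.82 in 19 comparison wells. In 600s_182s the 6 members had a median of 0.58, below the 4.30 of 38 members of 613s and the 3.87 of 9 members of 1025s_182s. The 46 Camk2a-low wells with enough reads lay between members and comparison wells, with a median of 2.41.

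Genes of nuclear factors of oligodendrocytes were lower in the pool. Of 15 measured, 11 were lower (73.3%, against 48.7% of all genes) and none higher, with a median of -1.88, or -1.68 under 100000 reads. Olig2, a factor of the whole lineage, had 133 against 641 CPM (-2.26) and ran from 0 to 2568 CPM with a median of 32.0, against a comparison median of 473. Only 5 members were above that median. Within sets the medians of Olig2 were 13.4 CPM in members against 8.39 in comparison wells of 1025s_182s. They were 436 against 887 in 600s_182s and 55.1 against 222 in 613s. The list's median ratio was -1.01 within 1025s_182s, -1.95 within 613s and -1.47 within 600s_182s. Those of all genes were -2.06, -1.15 and -1.29. Sox8 had 106 against 435 CPM (-2.03), and Zfp488, a repressor of mature oligodendrocytes, 12.7 against 131 CPM (-3.27).

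The summed level of these factors had a median of 1799 CPM in members, 1957 in Camk2a-low wells and 7449 in comparison wells, and 84 of 92 members were below the comparison median. Of the comparison wells 339 of 699 had at least 3 markers of oligodendrocyte precursors (OPC) at 200 CPM, against 13 of 92 members. Members with this sign were 6 of 6 in 600s_182s, 5 of 49 in 613s and 2 of 37 in 1025s_182s. Comparison wells numbered 337, 179 and 183 in the same order, so the pooled values also hold a difference in sets. Less mRNA of these factors in a cell and fewer cells of that type cannot be told apart in such sums.

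Endoplasmic reticulum genes were also lower, by 19 of 30 (63.3%, against 48.7% of all genes) with none higher, and their median was -1.46. Under 100000 reads 13 were lower and 1 higher, where 49.1% of all genes were lower, and the median was -0.90 against -0.95 for all genes. At like depth the list thus lay at the background. Sec61a1, the pore through which new proteins enter the reticulum, ran from 0 to 398 CPM in members with a median of 17.1, against a comparison median of 235. It was at 0 in 31 members, and 1 member was above the comparison median. Pdia4, a folding enzyme, had 25.4 against 209 CPM (-2.99), and Ssr1 and Ssr2, subunits that flank the pore, 41.2 against 215 CPM (-2.36) and 32.6 against 191 CPM (-2.51). The summed list had a median of 3180 CPM in members and 8131 in comparison wells, 7166 in the comparison wells with Camk2a of 1000 CPM or more, and 4297 in Camk2a-low wells. In comparison wells under 100000 reads it was 5822 CPM. The sum was thus lowest in both classes of mitochondria-rich wells, and lower in shallow than in all comparison wells.

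Nuclear long noncoding RNAs as a group were not lower. Of 15 measured of 21 listed, 7 were higher (46.7%, against 13.3% of all genes) and 3 lower (20.0%, against 48.7%). The median was 0.63. Malat1, a nuclear speckle RNA picked after its values were seen, had 2375 against 2330 CPM (0.03) over all wells, and ran from 133 to 12216 CPM in members (median 1813) against a comparison median of 2442. In the comparison wells under 100000 reads its median was 7095 CPM, and at like depth its ratio was -1.49. The median of the list was then -0.53 against -0.95 for all genes, with 5 of 17 higher and 6 lower. Of all genes 21.2% were higher and 49.1% lower at that depth. Rian, an imprinted RNA of neurons, had 60.4 against 8.20 CPM (2.74) from 6 members, and Snhg14 158 against 24.4 CPM (2.64) from 8, while Sox2ot had 77.9 against 256 CPM (-1.71). Camk2a-low wells had more of these RNAs, with a summed median of 6954 CPM against 3316 in members.

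Genes of nuclear proteins and RNA processing followed the background. Of 36 measured, 16 were lower (44.4%, against 48.7% of all genes) and none higher, and their median of -0.88 was near the -0.94 of all genes. Centred on the latter, 2 were lower. Srsf2, a splicing factor, had 51.0 against 195 CPM (-1.91), and Nup98, of the nuclear pore, 1.96 against 18.0 CPM (-2.68), with 0.24 under 100000 reads. Ncl and Npm1, of the nucleolus, had 432 against 254 CPM (0.76) and 272 against 162 CPM (0.75). At like depth the median was -1.43 against -0.95 for all genes, with 20 of 35 lower.

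Ribosomal protein genes, whose mRNAs are also found in processes, were higher by 19 of 37 (51.4%, against 13.3% of all genes). None was lower, and the median was 1.01. Rplp1 ran from 0 to 1925 CPM in members (median 624) against a comparison median of 189, and 80 members were above it. Rps14 and Rps29 had 836 against 257 CPM (1.70) and 458 against 134 CPM (1.77). Under 100000 reads 8 of 37 were higher, near the 21.2% of all genes, and none lower, against 49.1%. The median was 0.56 against -0.95 for all genes. Rps29 then had a ratio of 0.66.

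Nuclear genes of the mitochondrial respiratory chain were higher by 11 of 43 (25.6%, against 13.3% of all genes) and lower by 1 (2.33%, against 48.7%). Their median was 0.66, and 0.65 under 100000 reads. Cox6a1 and Cox8a, of the cytochrome oxidase, had 1147 against 328 CPM (1.80) and 1068 against 300 CPM (1.83), and Ndufb9, of complex I, 914 against 249 CPM (1.87). Uqcrc2, of complex III, was the lower one with 63.7 against 161 CPM (-1.32). Of 17 glycolysis genes 5 were higher (29.4%, against 13.3% of all genes) and 1 lower (5.88%, against 48.7%). Eno2, the neuronal enolase, had 203 against 30.3 CPM (2.70) from 13 members, and Slc2a1, the glucose transporter of vessels and glia, 128 against 474 CPM (-1.87). The glycolysis list had a median of 0.62, and 1.03 under 100000 reads. At that depth 9 of 17 were higher and 2 lower, beside 21.2% and 49.1% of all genes.

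The mt- genes, which the rule used, were made up alike for messenger and ribosomal RNAs and less so for transfer RNAs. Messenger RNAs were 65.0% of mt- reads in members and 64.6% in comparison wells, ribosomal RNAs 31.4% and 33.1%, and transfer RNAs 3.68% and 2.27%. The log2 ratios of pooled CPM of the 22 transfer RNA genes ran from 2.27 for mt-Ts1 to 3.69 for mt-Td, against 2.41 for mt-Rnr2. The most abundant, mt-Rnr2, took 22.2% and 24.6%, mt-Cytb 14.0% and 16.1%, and mt-Nd5 12.4% and 9.90%. Of the 37 genes mt-Co2 was listed at 0 in both classes, and mt-Co3 had 10.1 and 1.69 CPM, although both encode core subunits of the same oxidase as mt-Co1. Their counts are no measure of their level here.

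Immediate early and heat shock genes, which rise within minutes when cells are handled, were lower by 14 of 19 measured (73.7%, against 48.7% of all genes) with none higher. Their median was -1.47, or -1.30 under 100000 reads, with 12 lower and 1 higher. Btg2, a growth inhibitor, had 16.6 against 110 CPM (-2.67). Atf3, a stress factor, had 7.30 against 51.5 CPM (-2.66), but its ratio under 100000 reads was 1.62. Comparison wells varied widely for this list, from 229 to 64049 CPM in sum, and members from 118 to 22817.

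RNA of the cells that the sort and the beads would enrich was low but present. Pdgfra, the gene of the green reporter line, ran from 0 to 2069 CPM in members with a median of 13.0, was at 0 in 37 and above 100 CPM in 11. Its pooled level was 86.4 CPM against 399 in comparison wells (-2.19), and in the 6 members of 600s_182s its median was 452 CPM. Tagln, the gene nearest in name to the second line, was at 0 in 66 members, with 26.5 against 27.5 CPM in the pool. Of 12 precursor markers 10 were lower (83.3%, against 48.7% of all genes) and none higher, with a median of -1.95, or -2.14 under 100000 reads. Among the lower ones were Gpr17 with 181 against 882 CPM (-2.28) and Enpp6 with 24.4 against 315 CPM (-3.64). Within sets the median of the precursor list was -1.57 in 1025s_182s, -1.76 in 613s and 0.05 in 600s_182s. Those of all genes were -2.06, -1.15 and -1.29.

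In the pool 10 of 11 fibroblast, 6 of 10 endothelial and 4 of 9 microglial markers were lower (90.9%, 60.0% and 44.4%, against 48.7% of all genes) and none of them higher, such as Col1a1 with 35.8 against 256 CPM (-2.80), Slco1a4 with 26.6 against 166 CPM (-2.60) and Cx3cr1 with 7.51 against 77.0 CPM (-3.20). The medians over wells went the other way: the endothelial sum had a median of 232 CPM in members against 46.8 in comparison wells, and 81 of 92 members were above the latter. Comparison wells under 100000 reads had 265 CPM and members under 100000 reads 266, so the difference was not seen at like depth. Under 100000 reads 9 of 11 fibroblast markers were lower and 1 higher (median -3.73), and 6 of 10 endothelial markers lower and 1 higher (-1.34). Of all genes 21.2% were higher and 49.1% lower at that depth, with a median of -0.95. Microglial markers turned, with 4 of 7 higher and none lower (1.03 against -0.88 over all wells), and their sum had medians of 154 CPM in members and 75.8 in comparison wells of that depth. Cldn5, an endothelial junction gene, had a read in 79.3% of members and 45.5% of comparison wells after thinning. Ttr, the transthyretin of the choroid plexus, ran from 0 to 10148 CPM (median 643) against a comparison median of 3.78. It was above 100 CPM in 57 members, although the comparison wells under 100000 reads had a median of 36.8. Within sets the gap was smaller. The medians of Ttr were 419 against 168 CPM in 1025s_182s, 1091 against 214 in 613s and 0 against 0 in 600s_182s. The summed endothelial markers reached 12266 CPM in 1 member, and 6 of 92 members had at least 3 of them at 200 CPM. Of 9 mural markers 1 was higher and 2 lower (11.1% and 22.2%, against 13.3% and 48.7% of all genes). Of 7 ependymal and choroid plexus markers 1, Ttr, was higher and 2 lower (14.3% and 28.6%, median -0.88). Under 100000 reads 2 of 6 mural markers were higher and 1 lower, too few to set against the 21.2% and 49.1% of all genes. The median of the ependymal and choroid plexus list also changed sign there, with 5 of 6 higher and 1 lower (2.16). The single measured erythrocyte gene was neither. The part of these cells in the other results was not tested.

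Genes with the largest ratios that kept 1 direction in every set, among those of at least 50 CPM, included the following. Nrip3 had 195 against 2.99 CPM (5.62) but from 6 members above 100 CPM, and Golga7b, a palmitoylation partner, 144 against 4.58 CPM (4.70) from 16. Rapgef4, an exchange factor that answers to cyclic AMP, was both high and broad. It ran from 0 to 16010 CPM in members with a median of 2719, against a comparison median of 12.1, and 73 members were above 100 CPM. Its exons overlap the antisense gene Rapgef4os2, and the strand setting of the counting is not given, so reads of the pair cannot be told apart. Nrsn1, the vesicle protein neurensin, had 1116 against 50.9 CPM (4.43), with 45 members above 100 CPM.

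The lowest ratios under the same rule included reticulum enzymes and precursor signals. Dolpp1, which recycles the lipid carrier of sugar chains in the reticulum, had 3.16 against 72.6 CPM (-4.15), and Edem2, of reticulum quality control, 7.84 against 127 CPM (-3.86). Tnfrsf21, a death receptor, had 11.0 against 209 CPM (-4.13), and Bmp4, a signal of committed precursors, 6.21 against 113 CPM (-3.98). Rasgef1b had 9.69 against 153 CPM (-3.84). None of these 5 genes but Tnfrsf21, in 1 well, was above 100 CPM in any member.

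Most members held markers of more than 1 cell type. With at least 3 markers at 200 CPM counted as a sign of a type, all 92 members held oligodendrocyte RNA, 62 neuronal RNA (67.4%, 95% interval 56.8 to 76.8) and 35 astrocyte RNA (38.0%, 28.1 to 48.8), and 27 held all of them. In comparison wells 580 of 699 (83.0%) had the oligodendrocyte sign, 71 (10.2%) the neuronal, 95 (13.6%) the astrocyte and 29 (4.15%) all of them. In the 66 Camk2a-low wells these numbers were 60, 18, 11 and 4. At a limit of 20 CPM in place of 200 the combination was in 63 members (68.5%) and 39 Camk2a-low wells (59.1%), and the astrocyte sign in 73.9% and 72.7%, so the classes differed little at that limit. Of the 25 comparison wells under 100000 reads 3 had the neuronal sign. Camk2a is itself a neuronal marker in this count, and by the rule every member had it above 200 CPM. The neuronal sign and the combination were therefore partly set in advance for members. No astrocyte or oligodendrocyte marker was in the rule.

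Across the 92 members correlations between contents ranged from near 0 to moderate. The Spearman correlation of Kif5a with Aldoc was 0.23, of Ddn with Kif5a 0.07, of Aldoc with Mbp -0.02 and of Camk2a with Ddn 0.12, over wells that share library preparation and differ in depth from 50226 to 259329 reads. Summed astrocyte process mRNAs with Kif5a had 0.38, summed axonal genes with Mobp 0.36, and summed dendritic with axonal genes 0.33. Within 1025s_182s Ddn with Mobp had 0.44 and Kif5a with Aldoc 0.38. Closer pairs were Mbp with Mobp, at 0.67, and Mbp with the mt- share, at 0.69, while Mbp with depth had -0.58 and depth with the mt- share -0.79. Within 613s and 1025s_182s the correlation of Mbp with the mt- share was 0.77 and 0.63. The mt- share is part of the rule and both shares were lower in deeper wells, so nothing is read from these values.

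Members differed between sets. After thinning to 50000 reads, the members of 1025s_182s held a median of 1731 genes, those of 613s 4003 and those of 600s_182s 5588. Between the pools of 613s and 1025s_182s members, 4239 of 9338 genes were higher in 613s (45.4%) and 2359 lower (25.3%). The 16 genes with the largest differences were each above 100 CPM in only 1 to 5 of the 92 members. Kif5a had medians of 8189 CPM in 1025s_182s, 6246 in 613s and 1789 in 600s_182s, Mbp 21989, 20113 and 6388, and Aldoc 2792, 1714 and 1428. The labels do not say what the sets are, so a set and its cells cannot be told apart.

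Members were last set against the Camk2a-low wells, which share the mt- limit and a like depth (median 79670 reads). Against them 25.1% of 10775 genes were higher in members and 31.9% lower, with a median of -0.14. The medians of the lists were 1.61 for presynaptic genes, 1.33 for dendritic mRNAs, 0.60 for axonal genes and 0.57 for astrocyte process mRNAs, but -0.13 for myelin protein genes and -0.16 for oligodendrocyte nuclear factors. Mbp had a ratio of 0.55 there and Kif5a of 1.14. Synaptic and dendritic lists thus stood well above the median of all genes there, and the myelin list at it. The 2 classes were split by Camk2a, itself a dendritic mRNA of neurons. Ratios of other neuronal genes are therefore not independent of how the wells were chosen, and are no further support for neuronal RNA in members.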

How the data were processed

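Whole-number read counts per gene for 1152 wells were used as deposited, with no normalization by the authors. Per the submitters' processing notes, the tools were featureCounts (Subread 1.4.6-p5), TopHat2 2.1.1 and SAMtools 0.1.18, and the builds GRCm38 and mm10. For the annotation, the strand setting and the handling of duplicate and multiply matching reads, the entry is: not given in the sources used here. No molecular identifiers were counted, so intervals cover counting error only. No doublet caller was run, and any well may hold material of several cells. No wells held identical counts.

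Counts were scaled to CPM within each well or within the summed reads of a class, and compared as log2 ratios with a pseudocount of 1 CPM. Genes with at least 10 CPM in either class were tested for a ratio of 2. Intervals are exact at 95% (Poisson for counts, Clopper-Pearson for shares). Thinning drew 50000 reads per well with seed 1. Kept wells had 50002 to 1451280 reads. Symbols of 42052 of 46517 genes (90.4%) were found in GENCODE vM21, which gave positions, exon lengths and overlaps.

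The members, the 24 gene lists and the marker genes were chosen with earlier results of these data known. The text names, from a rule, the label's markers, Pdgfra and Tagln, genes among the 4 highest and 4 lowest of each list, genes among the 12 highest and 12 lowest of at least 50 CPM with 1 direction in every set, and mt- genes. Not all genes that the rule allows are reported here. Exceptions are said to be picked after their values were seen. Alternatives changed the limits, scaling, pseudocount, filter, comparison wells and sets. The ratio script was tested on simulated data. Python 3.11.15, numpy 2.4.6, pandas 2.3.3 and scipy 1.17.1 were used.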

Additional observations from a re-analysis of the deposited data

Results flagged for a closer look

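Signal was also found in wells that the comparisons leave out for too few reads. Of the 295 wells under 50000 reads, 29 met the other limits, at least 5% of mt- reads and Camk2a of at least 1000 CPM. They had 3458 to 47092 reads (median 36287) and a median mt- share of 14.9%, and 14 came from 613s, 13 from 1025s_182s and 2 from 600s_182s. Their pooled levels were 8282 CPM for Camk2a, 4530 for Kif5a, 404 for Ddn, 132 for Gfap, 2245 for Aldoc, 30207 for Mbp, 12935 for Mobp, 633 for Mag and 49.1 for Sec61a1.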

How the results depend on the processing

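Of 82 named genes under 18 alternatives, 17 had a called log2 ratio that reversed in some. Reversed values, with their cause not tested, were as follows. Between wells under 100000 reads, chosen after the data were seen, Eef2k had 0.78, Lhx2 -0.17, Snhg14 -0.80, Nup98 0.24, Atf3 1.62 and Cx3cr1 0.39. Against Camk2a-low wells Gfap had -0.94, Kcna1 0.63, Sox8 0.31, Rian -0.34, Uqcrc2 0.42 and Ttr -0.51. With comparison wells of at most 150000 reads Lhx2 had -0.13. Within 1025s_182s Sox8 had 0.049, Snhg14 -3.06 and Gpr17 0.69, within 600s_182s Pdgfra had 0.50, Lrrc7 -2.50, Nova1 0.44, Mlc1 -0.10 and Rian -2.05, and without 613s Lrrc7 had -0.98.

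Member wells numbered 115 at 3% of mt- reads, 47 at 10%, 102 at Camk2a of 500 CPM, 87 at 2000 CPM, 117 with at least 20000 reads and 33 with at least 100000. Counts of called genes moved by over 1.5 times in these cases. Under 100000 reads 11 presynaptic genes and 4 neuronal factors were higher, and 6 long noncoding RNAs and 7 astrocyte nuclear factors lower. Against Camk2a-low wells 2702 genes were higher and 3442 lower, with 6 astrocyte process and 1 myelin gene higher, and 6 long noncoding RNAs, 5 astrocyte and 4 oligodendrocyte nuclear factors lower. Centring on the median of all genes gave 3318 higher and 3278 lower, 23 axonal genes higher, and 1 long noncoding RNA, 2 nuclear protein genes, 1 astrocyte and 7 oligodendrocyte nuclear factors lower. With comparison wells of at most 150000 reads 5 neuronal factors were higher and 5 long noncoding RNAs lower. The long noncoding RNAs also gave 5 with a mean over wells and 5 with no filter on level, and astrocyte nuclear factors 6 with no filter, 6 at 10% of mt- reads and 5 without 613s. Within 1025s_182s 21 axonal genes were higher, 7 long noncoding RNAs and 6 astrocyte nuclear factors lower. Within 600s_182s 10 presynaptic genes, 8 astrocyte process mRNAs and 5 neuronal factors were higher and 5 long noncoding RNAs lower. The other 188 of the values compared in this way (genes called over all and in 10 lists, and the number of members) stayed within 1.5 times. Outside these, under 100000 reads 8 ribosomal genes, 5 receptors and channels and 9 glycolysis genes were higher, in place of 19, 12 and 5. Of all genes 21.2% were higher there, in place of 13.3%.

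No paired analysis was possible because the wells form 1 group without replicate pairs. Members are shallow, with a median of 87029 reads, so genes at a few CPM were often at 0 in a well, and 25 comparison wells of like depth limit every value that is matched for depth.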
